A study of Mus musculus with 6 samples.

Results

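Primitive endoderm forms from the inner cell mass of the mouse blastocyst, beside the epiblast from which embryonic stem (ES) cells are derived. Its genes examined here were the zinc finger factors Gata6 and Gata4, the HMG-box factors Sox17 and Sox7, the forkhead factor Foxa2, the nuclear receptor Hnf4a and the receptor tyrosine kinase Pdgfra. Every probe set whose platform annotation gave 1 symbol that is one of these 7 genes was taken, whatever its signal, which gave 17 of the 45037 probe sets tested. The 7 genes were among 18193 with a probe set of their own. The cultures were mouse ES cells of the line EBRTcH3, grown with leukemia inhibitory factor. In these cells 3xFLAG-tagged human WBSCR1, a translation initiation factor, was placed at ROSA26 behind a promoter that tetracycline keeps off. The induced group was taken after 24 h without tetracycline and the control group was kept in it, so the transgene and the loss of the drug cannot be told apart. Clones A3, A1 and A4 were separately derived from the same line, and each gave 1 induced and 1 control array, 6 Affymetrix mouse arrays in all. Replicate 1 is clone A1, replicate 2 is clone A3 and replicate 3 is clone A4.

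In the embryo, cells that make FGF4 drive their neighbours through the FGF receptors towards primitive endoderm. Gata6 is the first of these factors to act and opposes Nanog, the epiblast factor. Sox17, Gata4 and Sox7 come on after it, and Pdgfra, which binds platelet-derived growth factors, marks the lineage on the cell surface. Foxa2 and Hnf4a belong to its later product, the visceral endoderm, where Hnf4a drives genes of secreted serum proteins. Cultures of mouse ES cells are known to hold some cells that express such genes. In bulk RNA, fewer cells of a type and less RNA per cell cannot be told apart.

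Signals are given as log2 values of the robust multiarray average (RMA), on which scale 1 unit is a doubling. The array medians over all probe sets lay between 5.11 and 5.18 log2, and a probe set is called dim here where it was under its own array's median. The arrays gave no detection calls, so differences are given in log2 only, and one against dim values may understate a change in RNA. The 18 matched genes of unrelated tissues such as muscle and retina had 38 probe sets between 2.21 and 6.82 log2, with a median of 4.34. The 17 probe sets of the 7 genes read 2.82 to 6.37 log2, inside that range, so a level alone does not show that a gene was expressed. The pluripotency genes read 10.39 to 14.07 log2 over their 12 members, so the markers of the labelled cell type were bright on every array. Between clones the F test called 0 of the 12, beside 6.84% of all genes, a share too small for that 0 to set them apart. The lowest fitted p values there belonged to Klf4, at -0.50 log2 in A3 minus A1, and Esrrb, at -0.40, neither past the threshold. Deviations from the group means correlated at 0.67 between the induced and control arrays of A3 but only at 0.314 for A1 and 0.290 for A4. The induced array of A1 followed the control array of A4 more closely, at 0.369, and the induced array of A4 followed the control array of A1 more closely, at 0.348. An exchange of labels between A1 and A4 in 1 condition would give such a pattern, but it was not tested, and the labels were kept. Results between clones are therefore also given without induced A1 and control A4, and without induced A4 and control A1.

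A RefSeq promoter window of assembly GRCm38.p6 was at hand for 3 of the 7 genes, Pdgfra, Hnf4a and Foxa2. The 250 bases before the annotated start are shown for Pdgfra, whose signal differed between clones, and for the first of the 2 Hnf4a starts, whose gene did not pass that test, with motif matches in capitals. Pdgfra lies on chromosome 5 and its window is chr5:75152001-75152250 on the forward strand. The Hnf4a window is chr2:163506607-163506856, also forward.
Pdgfra: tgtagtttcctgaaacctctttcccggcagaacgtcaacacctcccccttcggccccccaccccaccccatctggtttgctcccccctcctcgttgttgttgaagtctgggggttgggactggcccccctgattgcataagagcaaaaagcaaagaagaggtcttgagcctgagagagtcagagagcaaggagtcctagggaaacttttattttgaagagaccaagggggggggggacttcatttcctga
Hnf4a: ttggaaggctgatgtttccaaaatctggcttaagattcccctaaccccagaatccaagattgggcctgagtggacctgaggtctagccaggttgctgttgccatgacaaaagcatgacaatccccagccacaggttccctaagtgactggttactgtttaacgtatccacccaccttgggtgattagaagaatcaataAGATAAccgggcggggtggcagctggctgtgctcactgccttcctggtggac

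The search covered both strands. For GATA factors the letters sought were AGATAA, the variant that begins with T instead, TGATAA, the variant that ends with G instead, AGATAG, and the one with both changes, TGATAG. For forkhead factors the letters TGTTTAC were sought, as were those that read TATTTAC. For SOX factors the letters AACAAT were sought, as were those that read ACAAAG. Of 32851 windows of that length, 26.5% held a GATA match, 5.76% a forkhead match and 24% a SOX match. The Pdgfra window held none of them. The Hnf4a window shown held AGATAA 52 bases before the start, and the window of the other Hnf4a start held none. Of the 3 Foxa2 windows, the one at chr2:148045465-148045714 on the reverse strand held AGATAA 183 bases before the start, and 171 bases before it the SOX letters ACAAAG on the opposite strand. Each match is a description of letters.

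Clone A3 read lowest for most of these genes. Between the 3 clones, 4 of the 17 probe sets, 1 each of Gata6, Sox17, Sox7 and Pdgfra, passed the F test of limma at an adjusted p of 0.05, where 5.54% of all probe sets did. Against A1, 6 probe sets of 5 genes were called lower in A3, beside 3.96% of all probe sets, and 0 were called higher, beside 2.64%. Against A4, 3 probe sets, of Gata6, Gata4 and Sox17, were called lower in A3, beside 3.78% of all, and 0 higher, beside 2.52%. Between A1 and A4, 0 of the 17 were called in either direction, as against 0.0178% of all called lower in A1 and 0% higher. The median difference over the 17 was -0.30 log2 in A3 minus A1 and -0.14 log2 in A3 minus A4. Over all probe sets those medians were 0.031 and 0.027 log2.

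**Figure D1:**
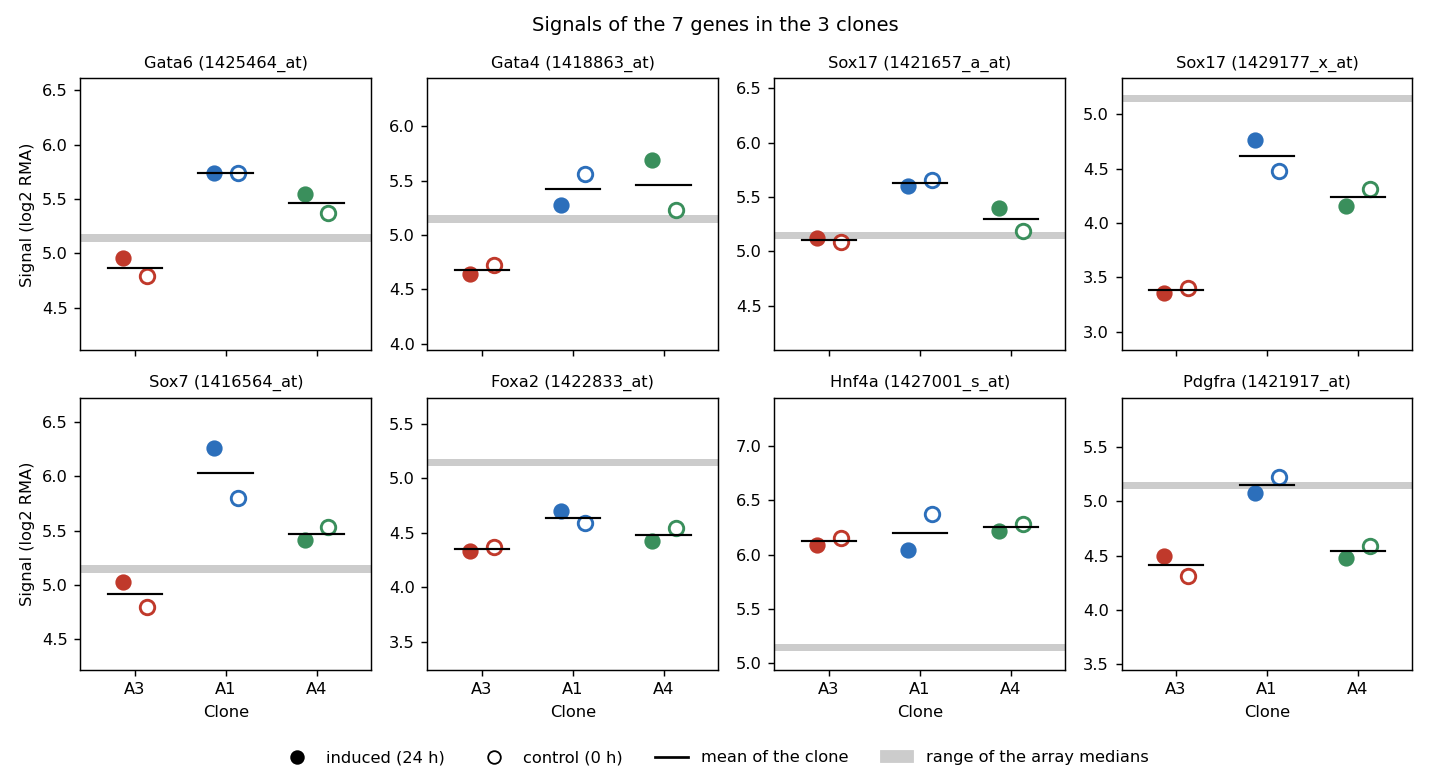
Log2 RMA signal (vertical axis, each panel spanning the same height) of the brightest probe set of each gene and of a further Sox17 probe set that passed the test, in clones A3, A1 and A4. Filled circles are induced arrays, open circles control arrays, bars the mean of a clone's 2 arrays, and the grey band the range of the array medians, 5.11 to 5.18 log2. For Gata6, Gata4, Sox17, Sox7 and Foxa2 both A3 arrays sit under the other 4, whereas the Hnf4a points of the 3 clones overlap and Pdgfra is highest in A1.

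Gata6, the factor that acts first in this lineage, had 3 probe sets. The brightest, 1425464_at, read 4.96 log2 in the induced and 4.79 in the control array of A3, 5.74 and 5.74 in those of A1, and 5.55 and 5.37 in those of A4. The 3 clones did not overlap, with A1 highest and A3 dim on both arrays. The difference was -0.87 ± 0.12 log2 (SE) in A3 minus A1, with an adjusted p of 0.00655, and -0.59 ± 0.12 in A3 minus A4, with an adjusted p of 0.0262. A1 and A4, neighbours in that order, were 0.28 ± 0.12 log2 apart, with an adjusted p of 1. A second Gata6 probe set, 1425463_at, read 5.09 and 4.64 log2 in A3, 5.61 and 5.65 in A1, and 5.10 and 5.77 in A4, induced array first. Both A3 arrays were again the lowest, but the induced array of A4 lay next to the induced array of A3, and the adjusted p was 0.0977 against A1 and 0.212 against A4. The third, 1443081_at, was dim on every array at 4.17 to 4.40 log2 and was not called.

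Gata4, a close relative of Gata6 that follows it in the lineage, showed the same low clone on its brightest probe set. It read 4.64 log2 induced and 4.72 control in A3, 5.28 and 5.56 in A1, and 5.69 and 5.23 in A4. The A3 arrays were the lowest by a gap, while the ranges of A1 and A4 overlapped. The difference was -0.74 ± 0.18 log2 in A3 minus A1, with an adjusted p of 0.0495, and -0.78 ± 0.18 in A3 minus A4, with an adjusted p of 0.0429, so both lay close to the threshold. The F test over the 3 clones did not pass, at an adjusted p of 0.0613. The other Gata4 probe set, 1418864_at, read 5.17 and 5.21 log2 in A3, 5.22 and 5.08 in A1, and 4.82 and 5.08 in A4, induced array first. Its clones overlapped, and its difference of 0.04 ± 0.13 log2 in A3 minus A1 was not called, so the pair of Gata4 probe sets did not move together.

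Sox17 and Sox7 are SOX factors of the same subgroup and both act in endoderm and in vessels. Sox17 1429177_x_at had the lowest adjusted p of the 17, 0.00651 in the F test. It read 3.36 log2 induced and 3.40 control in A3, 4.76 and 4.48 in A1, and 4.16 and 4.31 in A4. The 3 clones did not overlap, but all 6 values were dim. The difference was -1.23 ± 0.14 log2 in A3 minus A1, with an adjusted p of 0.00331, and -0.85 ± 0.14 in A3 minus A4, with an adjusted p of 0.0124. The ending _x_at is Affymetrix's mark for probes that may also match other transcripts, and whether they did here was not tested. The brighter Sox17 probe set, 1421657_a_at, read 5.12 and 5.09 log2 in A3, 5.60 and 5.66 in A1, and 5.40 and 5.19 in A4, induced array first. It kept the same order of clones with smaller gaps, -0.53 ± 0.12 log2 in A3 minus A1, with an adjusted p of 0.0420, and -0.20 ± 0.12 in A3 minus A4, with an adjusted p of 0.420.

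Sox7 had the widest range over the 6 arrays among the brightest probe sets of the 7 genes, 1.46 log2. It read 5.03 log2 induced and 4.80 control in A3, 6.26 and 5.80 in A1, and 5.41 and 5.53 in A4. The clones did not overlap, and only A3 was dim. The difference was -1.11 ± 0.15 log2 in A3 minus A1, with an adjusted p of 0.00734. It was -0.55 ± 0.15 log2 in A3 minus A4, with an adjusted p of 0.0839, and 0.56 ± 0.15 in A1 minus A4, with an adjusted p of 1. The second Sox7 probe set was dim on every array, at 4.30 to 4.70 log2, and was not called.

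Pdgfra, the receptor, was highest in A1. Its brightest probe set read 4.50 log2 induced and 4.31 control in A3, 5.08 and 5.22 in A1, and 4.48 and 4.59 in A4. A1 was above the other 4 arrays, and the A3 and A4 arrays overlapped. The difference was -0.74 ± 0.13 log2 in A3 minus A1, with an adjusted p of 0.0160, but -0.13 ± 0.13 in A3 minus A4, with an adjusted p of 0.643. The 0.61 ± 0.13 log2 in A1 minus A4 did not pass, with an adjusted p of 0.840. Probe set 1421916_at kept the order at lower signals, 4.04 and 3.92 log2 in A3, 4.33 and 4.55 in A1, and 4.11 and 4.16 in A4, induced array first, with an adjusted p of 0.0776 against A1. The third, 1438946_at, read 3.52 to 3.73 log2 with overlapping clones.

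Foxa2 and Hnf4a, the factors of visceral endoderm, were not called in any comparison of clones. Foxa2 read 4.33 log2 induced and 4.37 control in A3, 4.70 and 4.59 in A1, and 4.42 and 4.54 in A4. Its clones lay in the order A1, A4, A3 without overlap, all dim, and its -0.30 ± 0.12 log2 in A3 minus A1 had an adjusted p of 0.195. Hnf4a 1427001_s_at, the brightest of the 17, read 6.09 and 6.15 log2 in A3, 6.04 and 6.37 in A1, and 6.22 and 6.28 in A4, induced array first. Its clones overlapped, and the interval of A3 minus A1 ran from -0.37 to 0.20 log2. Hnf4a 1450447_at, at 5.80 to 6.05 log2, was the other probe set above the median on all 6 arrays, and neither was called. Among the dim Hnf4a probe sets, 1427000_at read 2.82 and 3.03 log2 in A3, 3.22 and 3.24 in A1, and 3.33 and 3.44 in A4, with an adjusted p of 0.0600 against A4. The last, 1421983_s_at, read 4.76 to 4.90 log2 in all clones.

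**Figure D2:**
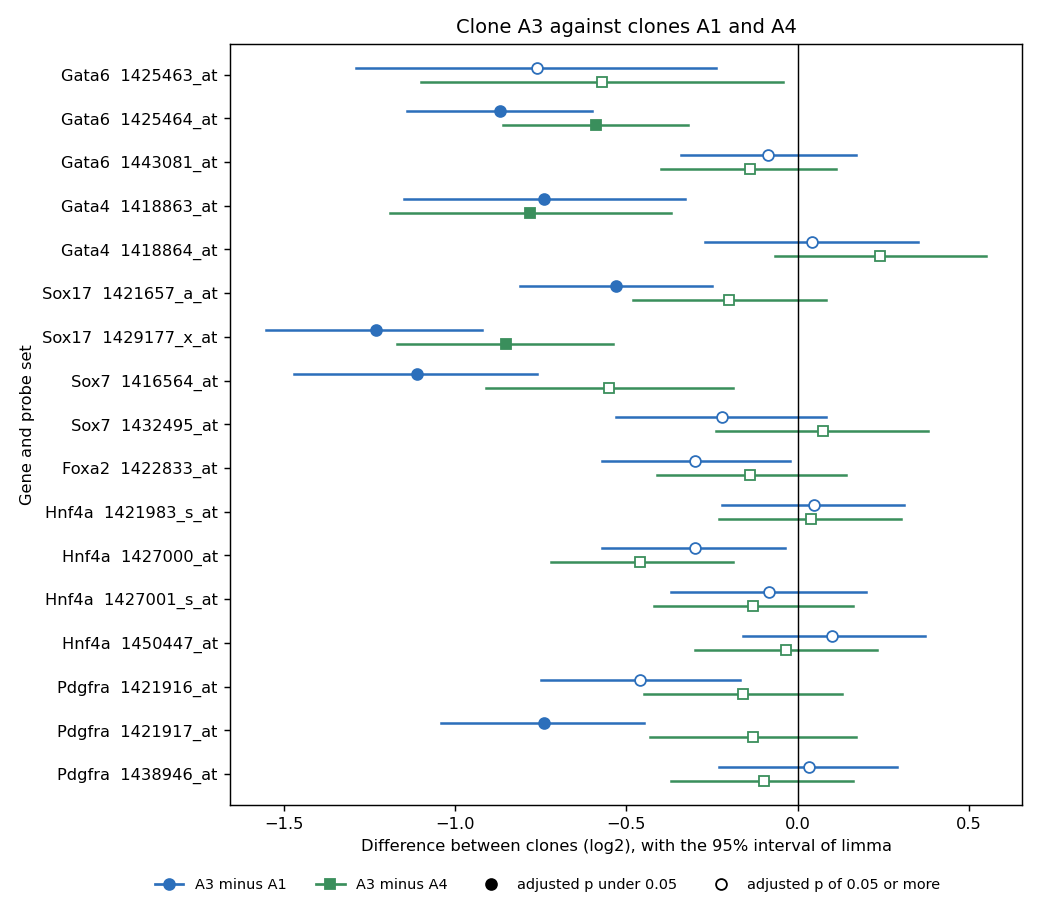
Differences between clones (horizontal axis, log2) of all 17 probe sets, as A3 minus A1 (circles) and A3 minus A4 (squares), with 95% intervals of limma. Filled symbols had an adjusted p under 0.05. All 9 filled symbols, 6 against A1 and 3 against A4, lie left of 0, and those of Foxa2 and Hnf4a are all open.

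By order alone, both A3 arrays lay below the other 4 in 10 of the 17 probe sets, where 16.6% of all probe sets did so. The 10 held at least 1 for each of the 7 genes, but genes with several probe sets had more openings. Hnf4a counted only through 1427000_at, which was dim on all 6 arrays. By the brightest probe set alone it was 5 of the 7 genes, beside 3373 of all 18193 genes. The full order A1, A4, A3 without overlap held for 6 of the 17 probe sets, where 3.49% of all did so. These were Gata6, both of Sox17, Sox7, Foxa2 and Pdgfra 1421916_at. In 8 of the 17 probe sets all 6 arrays were dim, in 2 none were, and in 7 the arrays were mixed. Of the 4 probe sets that passed the F test, Sox17 1429177_x_at was dim throughout and the other 3 were mixed. With a mean of at least 5 log2 required, 8 member probe sets remained, and 2 of them, of Gata6 and Sox7, passed the F test, where 11.1% of the probe sets tested did.

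Each clone comparison rested on 2 arrays a clone, and the calls moved with single arrays. In the F test, Sox17 1429177_x_at was called in 5 of the 6 fits that left out 1 array and missed the threshold without the induced array of A3, at an adjusted p of 0.0571. Sox7 and Pdgfra were each called in 3 of the 6 and Gata6 in 2, with highest adjusted p values of 0.0978, 0.192 and 0.0801. Sox7 was lost without either A3 array or the induced array of A1, Pdgfra without either A1 array or the control array of A3, and Gata6 without any of those 4 arrays. Gata4, not called in the F test with all arrays, was called without either array of A4. The F test called 5 of the 17 without control A4, where 4.18% of all probe sets were called, and 6 without induced A4, where 4.35% were. It called 2 without control A1 (2.48% of all) and 1 without induced A1 (1.93%), without control A3 (2.1%) and without induced A3 (1.31%). In A3 minus A4, Gata6 was called in 0 of the 6 fits, Gata4 in 1, the one without control A4, and Sox17 1429177_x_at in 4, all but those without control A4 or induced A3. Over those 6 fits A3 minus A1 ran from -0.95 to -0.78 log2 for Gata6, from -1.42 to -1.05 for Sox17 1429177_x_at, from -1.32 to -0.91 for Sox7 and from -0.90 to -0.58 for Pdgfra. Without clone A3, 0 of the 17 and 8 of all probe sets were called between A1 and A4.

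With 2 arrays left out, condition and clone leave no residual spread, so clone was the only term, and A1 and A4, each at 1 array, were assumed to vary like A3. Both the arrays and the model then differ. Without induced A1 and control A4, 0 of the 17 were called by the F test, against 30 of all probe sets (0.0666%), and without induced A4 and control A1 0 of the 17, against 87 of all (0.193%). With all 6 arrays and clone as the only term, 5 of the 17 and 7.03% of all were called. Without induced A1 and control A4, A3 minus A1 was -0.87 log2 for Gata6, -0.88 for Gata4, -1.09 for Sox17 1429177_x_at, -0.88 for Sox7 and -0.81 for Pdgfra. Without induced A4 and control A1 it was -0.87, -0.60, -1.37, -1.35 and -0.67 log2 in the same order of genes, and Sox17 1429177_x_at alone was called, with an adjusted p of 0.0424. The difference of A3 from the mean of A1 and A4 keeps its size if the A1 and A4 arrays of a condition are exchanged. Its SE and adjusted p need not stay the same. With the labels kept, 5 probe sets were called lower in A3 by this difference, beside 5.68% of all. They were of Gata6, Gata4, Sox17, Sox7 and Pdgfra, and 0 were called higher, beside 3.89%. Beside the clone difference, the 18S ribosomal control probe sets averaged 7.27 log2 induced and 6.61 control in A3, 7.03 and 5.66 in A1, and 5.99 and 5.99 in A4. The 3′ minus 5′ signal of Actb was 0.29 and 0.32 log2 in A3 and 0.40 to 0.45 in A1 and A4, and that of Gapdh -0.01 to 0.10 over all arrays. The part of RNA quality in the clone difference was not tested.

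No probe set of the 17 was called on induction. In limma, 0 of 17 passed, and 0% of all probe sets, with 0.999942 as the adjusted p of each member. Before adjustment, 0 of 17 and 676 of all, 1.5%, had a p under 0.05, and the methods' t-test, adjusted the same way, called 0. Differences of induced minus control ran from -0.15 log2 for Hnf4a 1427001_s_at to 0.19 for Sox7, with 7 positive and 10 negative and a median of -0.019, beside -0.0031 over all probe sets. The 95% intervals reached from -0.88 to 1.01 log2, and 16 of the 17 lay within 1 log2 of no change. They were narrowest for Hnf4a 1421983_s_at, from -0.19 to 0.22 log2. The fit leaves out the clone, so differences between clones add to its errors, as for Sox17 1429177_x_at (SE 0.39).

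**Figure D3:**
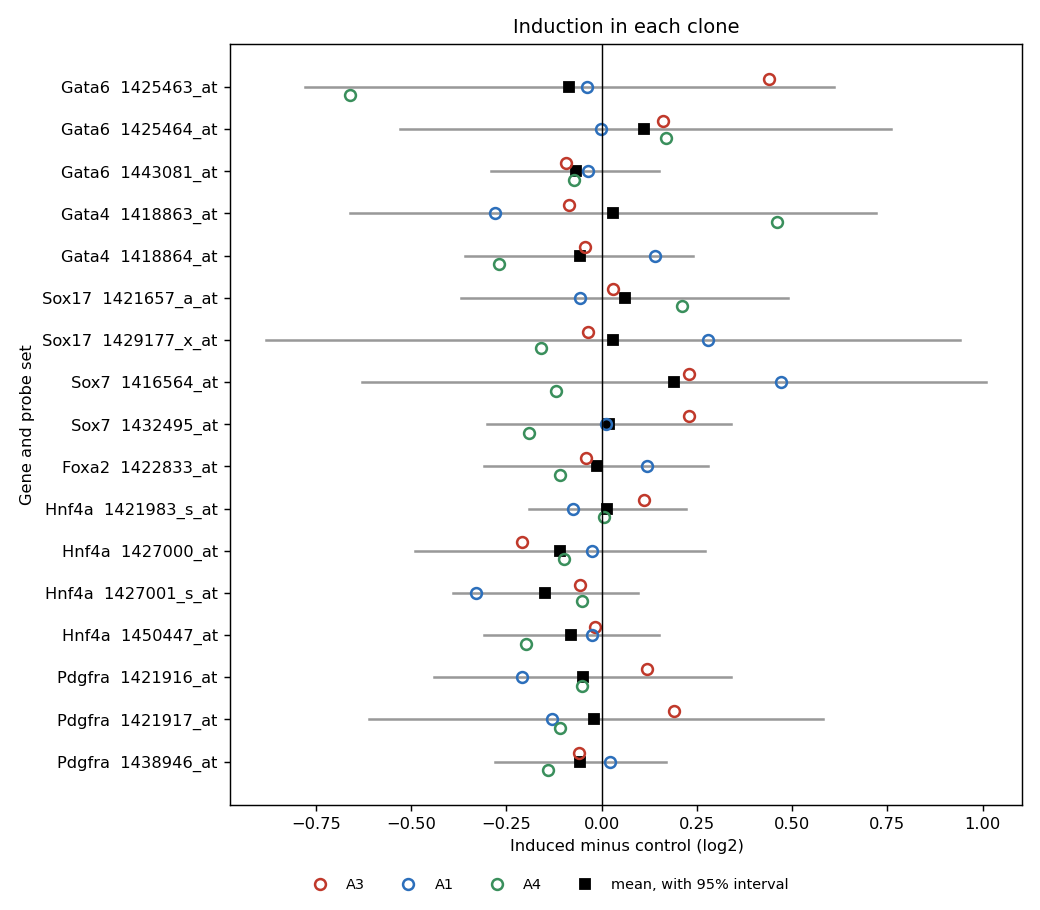
Induced minus control (horizontal axis, log2) of the 17 probe sets. Open circles are the single pairs of clones A3, A1 and A4, and black squares with grey lines the mean over clones with its 95% interval. Every interval crosses 0, and the pairs of a probe set mostly lie on both sides of it.

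By clone, each a single pair of arrays with no spread of its own, induced minus control ran from -0.21 to 0.44 log2 in A3, with 8 of the 17 positive. It ran from -0.33 to 0.47 in A1, with 6 positive, and from -0.66 to 0.46 in A4, with 4 positive. Medians were -0.018, -0.026 and -0.11 log2 for A3, A1 and A4, beside 0.0098, -0.019 and -0.0078 over all probe sets. The sign was the same in all 3 clones for 4 of the 17, as for 21.8% of all probe sets. Gata6 1425463_at had the widest gap of any pair, -0.66 log2 in A4, set against 0.44 in A3 and -0.04 in A1. The brighter Gata6 probe set differed by 0.16, -0.0014 and 0.17 log2 in A3, A1 and A4, so the signs of the Gata6 probe sets differed. Gata4 1418863_at gave -0.09 log2 in A3, -0.28 in A1 and 0.46 in A4. Sox7 gave 0.23 log2 in A3, 0.47 in A1 and -0.12 in A4, a mean of 0.19 ± 0.35 (SE). Whether induction differed between clones was not tested, since a clone had 1 pair.

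Other genes of the lineage were read from 1 probe set a gene, the brightest. Of 26 matched genes of primitive, visceral and parietal endoderm, 8 passed the F test between clones, where 6.84% of all genes did. In A3 minus A1, 8 were lower and 0 higher, beside 4.78% and 3.59% of all genes, with a median of -0.18 log2 against 0.035. In A3 minus A4, 7 were lower and 1 higher, beside 3.95% and 3.39%, and the median was 0.011 against 0.037 log2. Srgn, a secreted proteoglycan core protein, led by p at 4.93 log2 induced and 4.96 control in A3, 8.44 and 8.23 in A1, and 7.38 and 7.47 in A4. Both A3 values were dim, and the difference was -3.38 ± 0.12 log2 in A3 minus A1, with an adjusted p of 2.6e-05. Col4a1, a basement membrane collagen chain, followed at 6.46 and 6.47 log2 in A3, 8.24 and 8.04 in A1, and 7.75 and 7.80 in A4, induced array first. The others lower against both clones, named after their values were seen, were Col4a2, the uptake receptor Cubn with its partner Amn, the adaptor Dab2 and the factor Hhex. Lama1 was lower against A1 only, at -0.49 ± 0.11 log2 with an adjusted p of 0.0435, and did not pass the F test. Lamb1, another laminin chain, was higher in A3 than in A4, at 0.69 ± 0.12 with an adjusted p of 0.0190. The calls of Lama1, Lamb1, Hhex, Amn and Dab2 moved when single arrays were left out. The serum protein genes Afp, Ttr and Apoa1 were not called. On induction 0 of the 26 were called, and the smallest p values belonged to Bmp2, at 0.23 ± 0.12 log2, and Apoe, at 0.11 ± 0.09. Over the fits without 1 array or 1 clone the F test called 0 to 7 of the 26, the 0 being the fit without clone A3, and 5 where the one or the other array of A1 was left out. With clone as the only term it called 1 without induced A1 and control A4, and 2 without induced A4 and control A1, against 8 with all arrays.

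**Figure D4:**
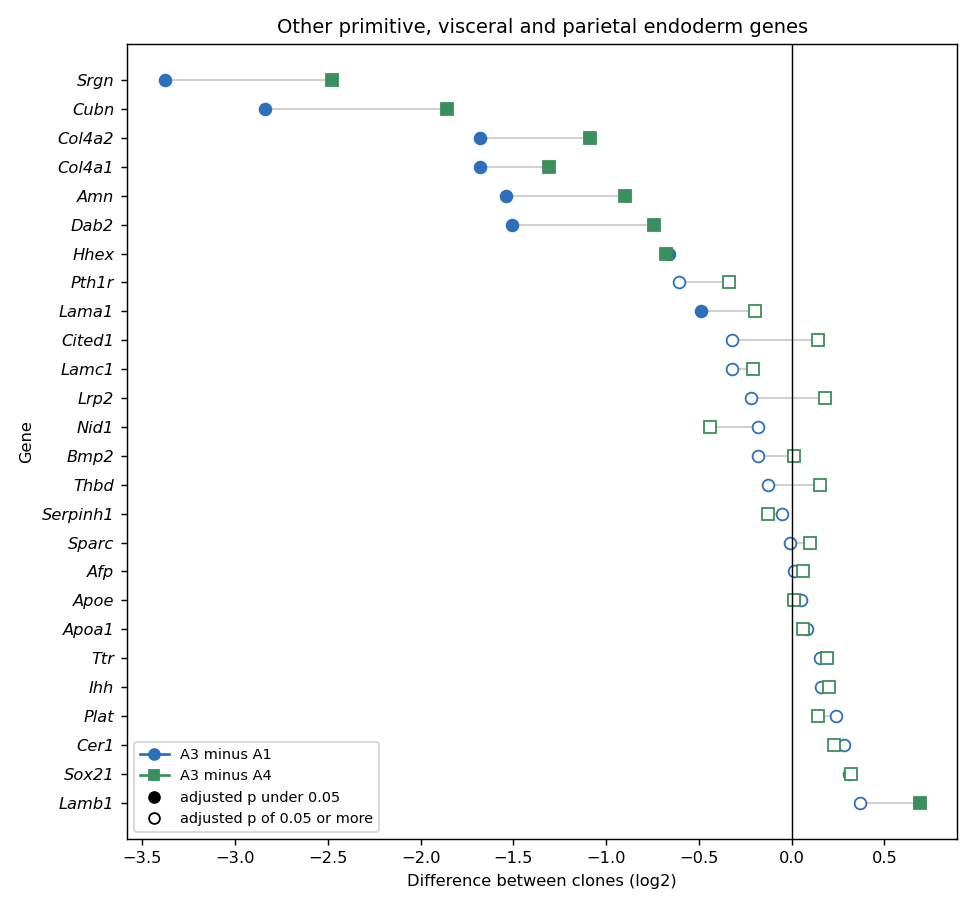
Differences between clones (horizontal axis, log2) of the 26 other endoderm genes, A3 minus A1 as circles and A3 minus A4 as squares, in the order of A3 minus A1, filled where the adjusted p was under 0.05. Srgn and Cubn lie farthest left at -3.38 and -2.84 log2 against A1, and Lamb1 is the one filled symbol on the right.

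The ligands and receptors around Pdgfra did not move one way. Of 6 genes, Pdgfa, a ligand of the receptor, read 8.78 log2 induced and 8.91 control in A3, 9.47 and 9.86 in A1, and 9.51 and 9.52 in A4. It was lower in A3, at -0.82 ± 0.13 log2 against A1 with an adjusted p of 0.0118 and -0.67 ± 0.13 against A4 with an adjusted p of 0.0251. Pdgfc, another ligand of the receptor, was higher in A3, at 9.39 and 9.50 log2, than in A1, at 8.85 and 8.67, and A4, at 8.19 and 8.45. The differences were 0.68 ± 0.14 log2 against A1, with an adjusted p of 0.0273, and 1.12 ± 0.14 against A4, with an adjusted p of 0.00492. Pdgfb, Pdgfd, Pdgfrb and Kit were not called. In the FGF list of 8 genes, Fgfr2 passed, at 0.63 ± 0.12 log2 higher in A3 than in A4 with an adjusted p of 0.0218. The ligand Fgf4 read 10.22 to 10.39 log2 in all arrays and was not called, nor was the phosphatase Ptpn11. In the 6 fits without 1 array, Pdgfa was called in 2 against A1 and in 2 against A4, Pdgfc in 2 and in 6, and Fgfr2 in 2 against A4. Without either pair of arrays named above, none of the 3 was called.

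Among 9 paralogs of the 7 genes, Foxa1 alone was called. It read 3.79 log2 induced and 3.92 control in A3, 4.48 and 4.56 in A1, and 4.81 and 4.42 in A4, with -0.67 ± 0.15 log2 in A3 minus A1 and -0.76 ± 0.15 in A3 minus A4. Gata1, the next by p, was at 0.48 ± 0.13 log2 in A3 minus A1 and did not pass, and the GATA cofactors Zfpm1 and Zfpm2 were not called. In lists of other lineages A3 was not uniformly low. Of 13 mesoderm and heart genes, Twist1 was lower in A3 against A1 and A4, at -1.21 ± 0.14 and -0.82 ± 0.14 log2, and Myl7 was higher against A1. Of 10 genes of definitive endoderm, liver and gut, Cldn6 and Cxcr4 were higher in A3 against both clones, Cldn6 by 1.89 ± 0.12 log2 over A1. Cxcr4 read only 3.42 to 4.10 log2 and was dim on every array. Foxa1, listed there too and also dim on every array, was lower. Of 8 trophectoderm genes, Tfap2c and Ascl2 were higher against both clones and Krt7 against A1. Of 11 fibroblast and feeder genes, 0 were called between clones, with values of 2.56 to 7.37 log2, and list means of 4.78 and 4.71 in A3 and 4.59 to 4.69 in A1 and A4. In the 6 fits without 1 array, Cldn6 was called against both clones in all 6, Twist1 in 4 against each, Tfap2c in 4 against A1 and 5 against A4, Ascl2 in 3 and 2, Foxa1 and Cxcr4 in 2 against each, and Myl7 and Krt7 in 2 against A1. Without induced A1 and control A4 only Cldn6 of these was called, against A1, and without induced A4 and control A1 only Cldn6, against both. In each of the 11 lists 0 genes were called on induction.

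Genes patterned most like a member were sought where its brightest probe set had a mean of at least 5 and a range of at least 1 log2, which held for Gata4 and Sox7. Among 621 genes held to the same limits, those with the highest Pearson r with Gata4 over the 6 arrays were Rangap1 at 0.982, Scrib at 0.973 and Mrtfa at 0.972. All 3 lie on chromosome 15, whereas Gata4 lies on chromosome 14 with Sox7. Rangap1 read 9.16 log2 induced and 9.25 control in A3, 9.93 and 10.37 in A1, and 10.43 and 10.13 in A4. For Sox7 they were Gnai1 at 0.984, Ccn2 at 0.982 and Dab2 at 0.977. Of these Dab2 also lies on chromosome 15, Gnai1 on chromosome 5 and Ccn2 on chromosome 10. Dab2, which acts in endocytosis and is itself an endoderm gene, read 5.87 log2 induced and 5.71 control in A3, 7.47 and 7.13 in A1, and 6.62 and 6.44 in A4. These correlations describe 6 arrays that share 3 clones, so they mostly restate the clone pattern.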

How the data were processed

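Total RNA of the 3 clones was hybridized to Affymetrix whole-genome mouse arrays, 1 for each clone and condition. The deposited log2 values were made by the authors with the RMA function of affy (Bioconductor; version not given in the sources used), and were not normalized again. Of 45101 probe sets, 64 Affymetrix controls were left out of the tests. Gene symbols came from the platform annotation (1 symbol for 34945 probe sets, several for 932, none for 9160).

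The induction contrast was fitted in R 4.3.3 by limma 3.58.1 (lmFit, then eBayes), induced against control, without further terms. Clones were compared by an F test and by pairwise contrasts in a fit of clone and condition. Tests were two-sided, with Benjamini-Hochberg adjustment over 45037 probe sets at 0.05. The labels give the same number to the 2 arrays of a clone, which pairs them; deviations correlated at 0.314 for A1, 0.67 for A3 and 0.290 for A4. Alternatives were the replicate block, the methods' t-test, a mean of at least 5 log2, other normalizations, eBayes options and leaving out arrays. Precision is limited by the number of arrays. The fits were tested on simulated data. The simulated arrays for induction held no differences between clones, which add to the errors of that fit in the real arrays. They therefore cannot show how large a change the induction fit would find here.

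The members, lists and tests were chosen with earlier results of these data known. Named genes were all member probe sets and the 3 genes most like each qualifying member. The rule also took the 2 genes with the smallest p in each list between clones and on induction, but not all of these are named. Other named genes stand as calls counted in a list or were picked when their values were known. RefSeq windows were of GRCm38.p6. Python 3.11.15 with matplotlib 3.10.9 drew the figures.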

Additional observations from a re-analysis of the deposited data

How the results depend on the processing

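No member probe set was called on induction under any alternative run, the replicate block, the methods' t-test, the normalizations and the fits without arrays included. With the replicate block, pairing the arrays of a clone, 0 of the 17 and 0 of all probe sets were called, 1539 of all at an unadjusted p under 0.05, and the block changed no other call. The induction differences of the dim genes had no settled sign. That of Foxa2 (-0.013 log2) was 0.011, 0.016 and 0.022 and that of Pdgfra (-0.019) was 0.0052, 0.010 and 0.015 with array medians subtracted, quantile normalization and cyclic loess. Leaving out arrays or clones, induced minus control ran from -0.14 to 0.34 for Gata6, -0.21 to 0.31 for Gata4, -0.053 to 0.23 for Sox17 1421657_a_at, -0.30 to 0.39 for Sox17 1429177_x_at, -0.16 to 0.46 for Sox7, -0.12 to 0.066 for Foxa2 and -0.22 to 0.24 for Pdgfra. Without induced replicate 1 and control replicate 3, a choice made after seeing the data, it was -0.015 for Gata6, -0.11 and -0.18 for the Sox17 probe sets, -0.079 for Sox7 and -0.27 for Pdgfra. Without induced replicate 3 and control replicate 1, also chosen after seeing the data, it was -0.017 for Gata4, 0.061 for Foxa2, 0.34 for Pdgfra and 0.48 for Sox7.

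Between clones the F test called 5 of the 17 with clone as the only term (7.03% of all probe sets), with array medians subtracted (6.05%), quantile normalization (6.48%), cyclic loess (6.43%) and the trend and robust options (8.03%), and 2 of 8 with a mean of at least 5 log2 (11.1%). Leaving out arrays or clones, it called 0 to 6 members, 8 to 2724 of all probe sets and 0 to 7 endoderm genes. The member calls in A3 minus A1 and in A3 minus A4 moved as well. For all fits without arrays or clones, the share of all probe sets called in those contrasts was not counted. Over those fits Gata4 ran from -0.36 to 0.28 log2 in A1 minus A4, Hnf4a from -0.22 to 0.056 in A3 minus A1 and from -0.19 to 0.092 in A1 minus A4, and Pdgfra from -0.29 to 0.027 in A3 minus A4. Without induced replicate 1 and control replicate 3, and with clone as the only term, the counts were 0 members, 30 of all, 1 endoderm gene, and 0 in both A3 minus A1 and A3 minus A4, and Hnf4a was at 0.14 log2 in A1 minus A4. Without induced replicate 3 and control replicate 1, in the same model, they were 0 members, 87 of all, 2 endoderm genes, 1 in A3 minus A1 and 0 in A3 minus A4, with Gata4 at 0.052 log2 in A1 minus A4 and Hnf4a at 0.083 in A3 minus A1. These fits have fewer arrays, and what else lowered the counts was not tested. With 6 log2 or the highest value of unrelated tissue genes on the same array as the limit, 14 and 17 of the 17 probe sets were dim, where 8 were under the array median.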
